A study of Mus musculus with 15 samples.

Results

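A set of 9 genes of hepatic retinol handling was examined across the livers of 15 male mice. They were Rbp4, Lrat, Retsat, Rdh16, Rdh16f2, Rdh11, Dhrs3, Aldh1a1 and Cyp26a1, 9 of the 22180 genes measured, and each was taken by its symbol and read from its 1 transcript cluster, the set of array probes summarised for a gene. All mice carried the apoE3L.CETP genotype (transgenes for human ApoE*3-Leiden and CETP, used to bring mouse lipoproteins closer to human ones), and before surgery they were fed 60% fat with 0.25% cholesterol during 6 weeks. The groups were Roux-en-Y gastric bypass (RYGB, 6 mice), which joins a small gastric pouch directly to the jejunum, a sham operation with body weight matched to the bypass mice (BWm, 4 mice), and a sham operation with feeding ad libitum (Sham AL, 5 mice). The mice were single housed after surgery and killed 20 days after it. The labelled age of 9 to 12 weeks is that at the start, before acclimation and the diet. Glucose and insulin tests were done between surgery and death, and the sources used here do not give the feeding state at death. No group was without the transgenes, the diet or an operation. Each mouse gave 1 GeneChip Mouse Gene 2.0 ST array, and values are log2 signals from the robust multi-array average (RMA).

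The liver is the main store of vitamin A. Hepatocytes take up retinyl esters from chylomicron remnants, hydrolyse them and hand retinol to stellate cells, where Lrat (lecithin retinol acyltransferase) esterifies it for storage in lipid droplets, and retinol leaves the liver on the plasma carrier Rbp4. Retinol dehydrogenases and reductases such as the Rdh enzymes and Dhrs3 interconvert retinol and retinal, Aldh1a1 oxidises retinal to retinoic acid, and Cyp26a1 hydroxylates retinoic acid for clearance. Retsat (retinol saturase) takes retinol out of this path by saturating a double bond of its chain.

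The members were chosen by symbol, with earlier results of these arrays (their differences between the groups) known. Their differences between groups therefore describe the selected genes, the adjusted p values printed for them come from the fit over all 22180 genes, and neither is independent support. The measured value that a member's cluster was selected on was the mean level over the 15 arrays, which would have chosen among clusters had a gene had more than 1 cluster with a single symbol.

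The sequences just upstream of the 4 members whose level differed between groups past the threshold are shown because those genes moved in different ways. They were read from RefSeq promoters of build GRCm38.p6, run 5′ to 3′ and end at the base before the RefSeq gene span. Capitals mark the nuclear receptor half-sites AGGTCA and AGTTCA on either strand.
Retsat, chr6:72598352-72598601, plus strand: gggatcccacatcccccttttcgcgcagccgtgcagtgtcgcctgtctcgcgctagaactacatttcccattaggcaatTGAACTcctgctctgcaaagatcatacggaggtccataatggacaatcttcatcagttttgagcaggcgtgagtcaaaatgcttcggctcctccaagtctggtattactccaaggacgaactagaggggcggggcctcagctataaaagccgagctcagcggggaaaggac
Rdh16f2, chr10:127866226-127866475, plus strand: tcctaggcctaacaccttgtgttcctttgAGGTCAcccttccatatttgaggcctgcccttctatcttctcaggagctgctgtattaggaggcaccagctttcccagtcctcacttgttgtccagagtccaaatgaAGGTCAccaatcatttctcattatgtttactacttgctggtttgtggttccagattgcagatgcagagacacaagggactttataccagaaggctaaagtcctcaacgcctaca
Rdh16, chr10:127800903-127801089, plus strand: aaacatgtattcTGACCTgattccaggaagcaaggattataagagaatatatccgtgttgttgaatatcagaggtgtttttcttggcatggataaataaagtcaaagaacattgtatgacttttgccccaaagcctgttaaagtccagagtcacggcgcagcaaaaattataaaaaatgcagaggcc
Rdh11, chr12:79191856-79192105, minus strand: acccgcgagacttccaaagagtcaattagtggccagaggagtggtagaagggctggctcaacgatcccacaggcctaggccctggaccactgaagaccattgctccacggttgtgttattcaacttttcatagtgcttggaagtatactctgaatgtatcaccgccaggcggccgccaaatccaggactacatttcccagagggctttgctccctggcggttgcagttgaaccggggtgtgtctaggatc
Rdh16 and Rdh16f2 lie on the same strand with 50629 bases and 2 other RefSeq genes (Rdh18-ps and Rdh19) between them. Retsat had 1 such half-site, Rdh16f2 had 2 and Rdh16 had 1 in the stretches shown, and the Rdh11 stretch had 0, though another Rdh11 window in the table, which lies inside the gene span and is not shown, held 1 at -147 to -142 bases from its transcript start. For comparison, 27.7% of the 32851 promoter windows in the table (250 bases before to 50 after a transcript start) held at least 1.

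Retinoic acid receptors bind, with RXR partners, to direct repeats of this half-site. The member with a direct repeat with 5 bases between the half-sites was Cyp26a1, a gene known to be induced by retinoic acid, and its repeat is shown for that reason, at chr19:37697776-37697792 (GRCm38.p6, plus strand), with the half-sites in capitals as they read on the opposite strand.
Cyp26a1: TGAACTttgggTGAACT
The repeat lies -32 to -16 bases from the transcript start of the promoter table and inside the RefSeq gene span. A repeat of either half-site with 5 bases between was found in 13 of the 32851 windows (0.0396%), with 2 bases in 13 (0.0396%) and with 1 base in 27 (0.0822%). The other 8 members had 0 of these 3 repeats in their windows, and Cyp26a1 had 0 of those with 1 or 2 bases between.

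Array medians lay between 3.89 and 4.02, and the median standard error (SE) of a log2 difference lay between 0.127 and 0.14 in the 3 comparisons. An unadjusted p under 0.05, which some counts in the text use, was met by 12.9% of all genes in RYGB against Sham AL, 18.4% in RYGB against BWm and 15.3% in BWm against Sham AL. The 10 measured hepatocyte markers, such as Alb and Apoa1, averaged 11.37 to 11.53 on the RYGB arrays, 11.59 to 11.67 on the BWm arrays and 11.30 to 11.52 on the Sham AL arrays. The array of Sham AL replicate 4 stood apart. Its mean over 8 adrenal cortex markers was 8.57 against 3.66 to 3.99 on the other 14 arrays, with the steroid enzyme Cyp11b1 at 10.37. Its mean over 8 adipocyte markers was 9.09 against 3.89 to 4.64, with the brown fat protein Ucp1 at 11.89. For members past the threshold against Sham AL, values without this array are given too. The number of arrays limits the precision of every value, and in whole liver a change in the share of a cell type and a change in RNA per cell cannot be told apart.

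Against Sham AL, 2 of the 9 genes were higher after RYGB past an adjusted p of 0.05, Rdh16f2 and Rdh11, and 0 were lower. Of all genes 1.38% passed there, 0.938% higher and 0.442% lower. Against BWm, RYGB livers were higher in Rdh11 and lower in Retsat, Rdh16 and Rdh16f2 (4 of 9), where 6.36% of all genes passed, 4.02% higher and 2.34% lower. BWm livers were higher than Sham AL livers in Retsat and Rdh16f2 (2 of 9), where 2.84% of all genes passed, 1.53% higher and 1.3% lower. Because the genes were selected with these comparisons known, nothing is read from these counts against their backgrounds. The median log2 difference over the 9 genes was -0.20 in RYGB relative to BWm, where that over all genes was 0.00, and 0.21 in BWm relative to Sham AL, where it was -0.01. The comparisons share groups, so their values are given side by side and are not independent.

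**Figure D1:**
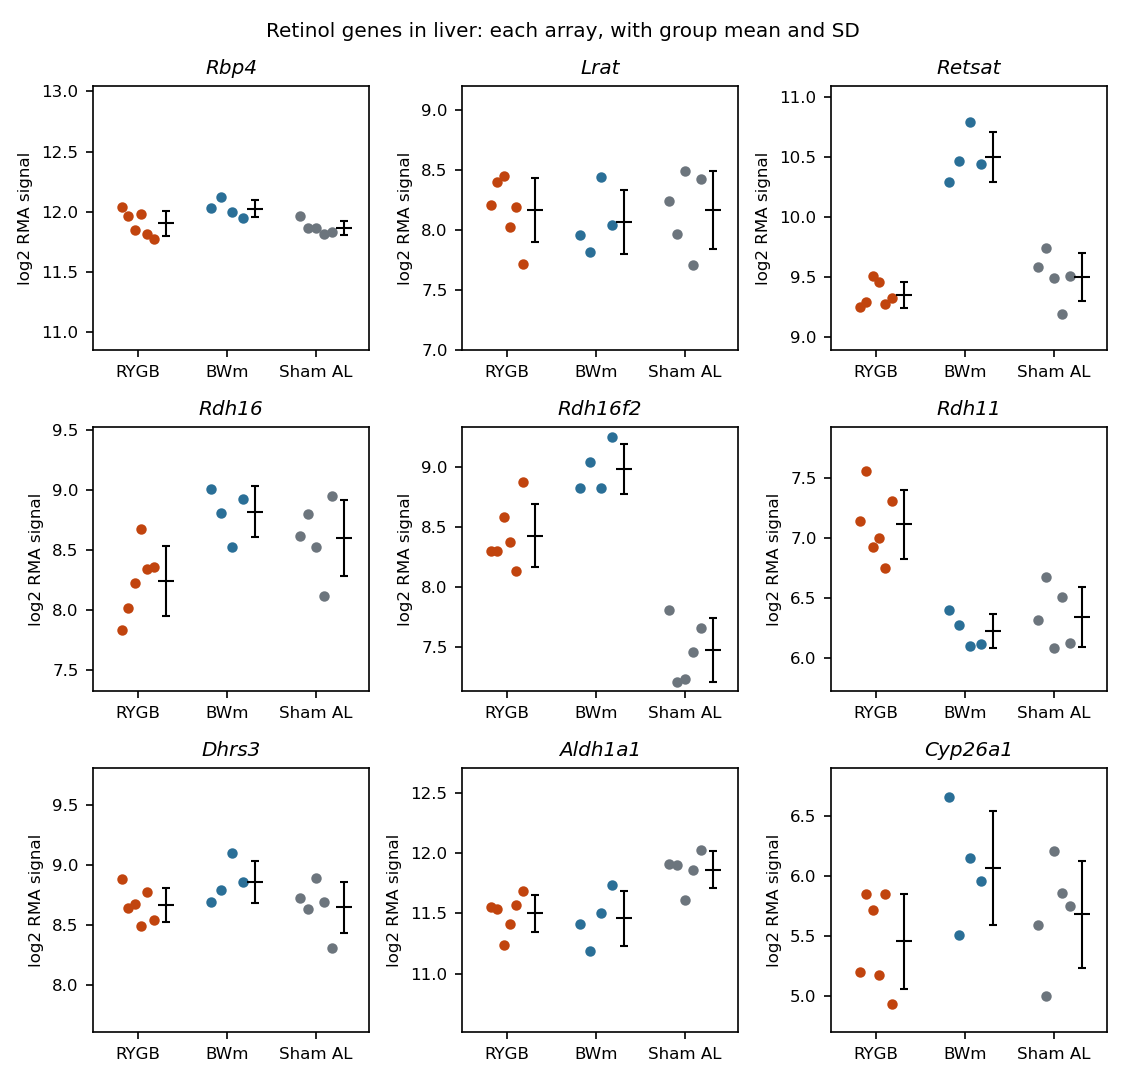
Log2 RMA signal (vertical axis, 2.2 log2 units in every panel) of the 9 genes on each array of the RYGB, BWm and Sham AL groups; points are arrays, and the black mark with its bar is the group mean and SD. Retsat is high in the 4 BWm livers (10.29 to 10.79), Rdh11 in the 6 RYGB livers (6.75 to 7.56), and Rdh16f2 in both groups relative to Sham AL (7.21 to 7.81).

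Rbp4, the plasma retinol carrier made by hepatocytes, measured 11.77 to 12.04 (median 11.90) in RYGB livers, 12.03, 12.12, 12.00 and 11.95 in BWm livers, and 11.96, 11.86, 11.86, 11.81 and 11.83 in Sham AL livers. The 3 groups overlapped. The log2 difference was 0.03 ± 0.08 SE for RYGB against Sham AL (95% confidence interval -0.14 to 0.21) and -0.12 ± 0.09 for RYGB against BWm (-0.31 to 0.06), and neither passed the test (limma adjusted p = 0.91 and 0.53). Of BWm against Sham AL it was 0.16 ± 0.09 (-0.04 to 0.35, adjusted p = 0.46).

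Lrat, the storage enzyme of stellate cells, measured 7.72 to 8.45 (median 8.20) in RYGB livers, 7.96, 7.82, 8.44 and 8.04 in BWm livers, and 8.24, 7.97, 8.49, 7.71 and 8.43 in Sham AL livers. Its group means of 8.17 ± 0.27 (SD, n = 6), 8.07 ± 0.27 (SD, n = 4) and 8.17 ± 0.33 (SD, n = 5), in the same order, differed by less than the spread within groups. The interval for RYGB against Sham AL ran from -0.34 to 0.33, and without Sham AL replicate 4 the log2 difference was -0.12. Stellate cell markers, a list that includes Reln, Des and Colec11, averaged 7.08 to 7.37 in RYGB livers, 7.12 to 7.48 in BWm livers and 7.00 to 7.36 in Sham AL livers. Of its 14 measured genes, 0 passed in RYGB against Sham AL, where 0 also had an unadjusted p under 0.05 by limma. The receptor gene Vipr1 alone passed in the other comparisons, lower in RYGB than in BWm and higher in BWm than in Sham AL. In each of these 2 comparisons, 2 of the 14 had an unadjusted p under 0.05. The median log2 difference was -0.11 in RYGB against BWm, with 5 of 14 positive, and 0.14 in BWm against Sham AL, with 11 of 14 positive.

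Retsat was higher in the weight-matched sham livers than in the livers of either other group. It measured 9.25, 9.29, 9.51, 9.46, 9.28 and 9.33 in RYGB livers. In BWm livers it measured 10.29, 10.47, 10.79 and 10.44, and in Sham AL livers 9.58, 9.74, 9.49, 9.19 and 9.51. All 4 BWm values lay above all values of the other 11 livers, while RYGB and Sham AL overlapped. RYGB livers were 2.21-fold lower than BWm livers (log2 -1.14 ± 0.12 SE, adjusted p = 2.7e-05), and BWm livers were 1.99-fold higher than Sham AL livers (log2 0.99 ± 0.12, adjusted p = 0.00082). By p, these ranked 13 and 6 among the 22180 genes. RYGB against Sham AL was log2 -0.15 ± 0.11 (95% interval -0.38 to 0.09, adjusted p = 0.63). In mouse liver Retsat is known as a gene induced by starvation and regulated by PPAR alpha, the fatty acid sensor of the fasted liver. Sham AL replicate 4 had the lowest Retsat of its group, and without it BWm against Sham AL was log2 0.92 (adjusted p = 0.0012) and RYGB against Sham AL -0.23 (adjusted p = 0.41).

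Rdh16f2 and Rdh16, neighbouring members of the family of dehydrogenases that act on cis-retinols and androgens, differed in pattern. Rdh16f2 was higher in RYGB and in BWm livers than in Sham AL livers. It measured 8.30, 8.30, 8.58, 8.37, 8.13 and 8.87 in RYGB livers, 8.82, 9.04, 8.82 and 9.25 in BWm livers, and 7.81, 7.21, 7.23, 7.46 and 7.66 in Sham AL livers. All RYGB and all BWm values lay above all Sham AL values. RYGB livers were 1.93-fold higher than Sham AL livers (log2 0.95 ± 0.14 SE, adjusted p = 0.002), and BWm livers were 2.84-fold higher than Sham AL livers (log2 1.51 ± 0.16, adjusted p = 0.00023), rank 2 by p of all genes in that comparison. Against BWm, RYGB livers were lower by log2 -0.56 ± 0.15 (adjusted p = 0.034), with 1 RYGB array, replicate 6 at 8.87, inside the BWm range. Without Sham AL replicate 4 the differences from Sham AL were log2 0.95 for RYGB and 1.50 for BWm.

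Rdh16 measured 7.84, 8.02, 8.23, 8.68, 8.34 and 8.36 in RYGB livers. It measured 9.01, 8.81, 8.53 and 8.93 in BWm livers and 8.62, 8.80, 8.53, 8.12 and 8.95 in Sham AL livers. RYGB replicate 4 lay inside the BWm range, and the ranges of all 3 groups overlapped. RYGB livers were lower than BWm livers by log2 -0.57 ± 0.17 (adjusted p = 0.048), RYGB against Sham AL was -0.36 ± 0.16 (adjusted p = 0.34, -0.48 without Sham AL replicate 4), and BWm against Sham AL was 0.22 ± 0.17 (adjusted p = 0.62).

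Rdh16 and Rdh16f2 can share probe signal. Over the 15 arrays, after subtraction of group means, their values had a Pearson's r of 0.20, and without that subtraction 0.13, and how far probe signal is shared was not tested. A further cluster assigned jointly to Rdh18-ps and Rdh16 was left out because it carries more than 1 symbol. The RYGB against BWm calls of both genes sat close to the threshold. That of Rdh16 was lost when RYGB replicate 1, 2, 3, 5 or 6 was left out, and likewise Sham AL replicate 1, 2 or 3 and BWm replicate 1, 2 or 4. It was also lost with a replicate block or a block for animal number and by the methods' own rule on p and fold. Over all 26 alternatives its difference was log2 -0.67 to -0.44 (limma adjusted p up to 0.18). That of Rdh16f2 was lost without RYGB replicate 1, 2, 4 or 5 or BWm replicate 2, 3 or 4 and by the methods' own rule, and over all alternatives its difference was log2 -0.65 to -0.47 (limma adjusted p up to 0.12).

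**Figure D2:**
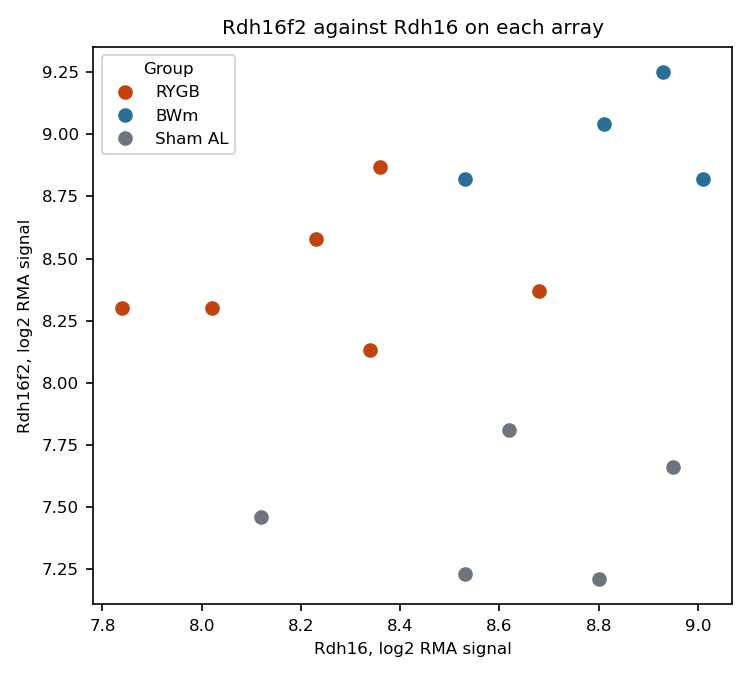
Rdh16f2 (vertical axis) against Rdh16 (horizontal axis), both as log2 RMA signal, with 1 point per array coloured by group. The Sham AL arrays lie at Rdh16f2 values of 7.21 to 7.81, under all arrays of the other groups (8.13 to 9.25), while along Rdh16 the 3 groups overlap.

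Rdh11, a microsomal reductase of retinal that in mouse liver is known to be regulated by SREBPs, the factors of sterol and fatty acid synthesis, was higher after bypass than in either sham group. It measured 7.14, 7.56, 6.93, 7.00, 6.75 and 7.31 in RYGB livers, 6.40, 6.28, 6.10 and 6.12 in BWm livers, and 6.32, 6.68, 6.09, 6.51 and 6.13 in Sham AL livers. All 6 RYGB values lay above all 9 sham values, and the sham groups overlapped. RYGB livers were 1.71-fold higher than Sham AL livers (log2 0.77 ± 0.14 SE, adjusted p = 0.009, log2 0.81 without Sham AL replicate 4) and 1.86-fold higher than BWm livers (log2 0.89 ± 0.15, adjusted p = 0.0012). BWm against Sham AL was log2 -0.12 ± 0.16 (95% interval -0.45 to 0.21, adjusted p = 0.79).

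Dhrs3, which reduces retinal back to retinol and is induced by retinoic acid in many cells, measured 8.49 to 8.88 (median 8.65) in RYGB livers, 8.69, 8.79, 9.10 and 8.86 in BWm livers, and 8.72, 8.63, 8.89, 8.69 and 8.31 in Sham AL livers. The groups overlapped in all 3 comparisons, and RYGB differed by log2 0.01 ± 0.11 from Sham AL and by -0.20 ± 0.12 from BWm, which itself differed by 0.21 ± 0.12 from Sham AL. Their 95% intervals reached from -0.45 to 0.47 at the widest, and the adjusted p values were 0.98, 0.43 and 0.47.

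Aldh1a1, the main retinal dehydrogenase of mouse liver, had lower values in the RYGB and BWm livers than in Sham AL livers without passing the test. It measured 11.55, 11.54, 11.24, 11.41, 11.57 and 11.69 in RYGB livers, 11.41, 11.19, 11.50 and 11.74 in BWm livers, and 11.91, 11.90, 11.61, 11.86 and 12.03 in Sham AL livers. One Sham AL array, replicate 3 at 11.61, lay inside the ranges of both other groups, and the other 4 lay above them. The log2 difference was -0.36 ± 0.11 for RYGB against Sham AL (unadjusted p = 0.0049, adjusted p = 0.14) and -0.41 ± 0.12 for BWm against Sham AL (unadjusted p = 0.0045, adjusted p = 0.095). Without Sham AL replicate 4 the differences were -0.36 and -0.41 (limma adjusted p = 0.2 and 0.14). BWm against Sham AL passed with genes of a mean of at least 5 only and without BWm replicate 4, with a lowest adjusted p of 0.039. RYGB against BWm was log2 0.04 ± 0.12 (interval -0.21 to 0.30). Pericentral hepatocyte genes, such as Glul and Cyp2e1, averaged 8.48 to 8.92 in RYGB livers, 8.72 to 8.99 in BWm livers and 8.67 to 9.09 in Sham AL livers, and 0 of 10 passed in any comparison, with 1 to 4 at an unadjusted p under 0.05. Their part in the Aldh1a1 values was not tested.

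Cyp26a1, whose direct repeat is printed above, varied most widely within groups of the 9 genes. It measured 5.20, 5.85, 5.72, 5.18, 5.85 and 4.94 in RYGB livers, 6.66, 5.51, 6.15 and 5.96 in BWm livers, and 5.59, 5.00, 6.21, 5.86 and 5.75 in Sham AL livers. The ranges overlapped in all comparisons, and the SD was 0.40 in RYGB, 0.48 in BWm and 0.44 in Sham AL. RYGB against BWm was log2 -0.62 ± 0.24 (unadjusted p = 0.02, adjusted p = 0.16), RYGB against Sham AL -0.23 ± 0.23 (adjusted p = 0.74) and BWm against Sham AL 0.39 ± 0.25 (adjusted p = 0.51). Single arrays moved the differences from Sham AL, which ran from -0.40 without Sham AL replicate 2 to -0.10 without Sham AL replicate 3 for RYGB. For BWm the difference was 0.19 without BWm replicate 1 and 0.22 without Sham AL replicate 2.

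**Figure D3:**
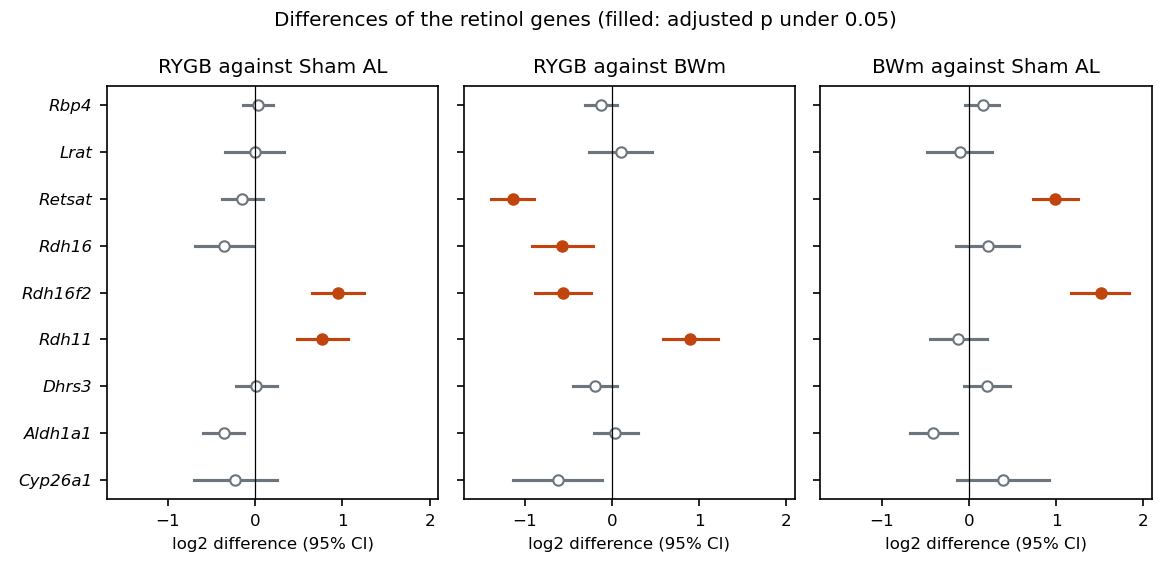
Log2 difference (horizontal axis) of each gene in the 3 comparisons, first group minus second; bars are 95% confidence intervals from the limma fit, and filled red points passed an adjusted p of 0.05. Retsat lies at -1.14 for RYGB against BWm and at 0.99 for BWm against Sham AL, and Rdh11 lies at 0.77 and 0.89 for RYGB against Sham AL and against BWm.

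Ranges of the groups did not overlap for 2 of the 9 genes in each comparison. In RYGB against Sham AL these were Rdh16f2 and Rdh11, where 2.39% of all genes had separate ranges (1.58% higher and 0.812% lower). In RYGB against BWm they were Retsat and Rdh11 (background 7.61%, 4.71% higher and 2.91% lower), and in BWm against Sham AL Retsat and Rdh16f2 (6.85%, 3.46% higher and 3.39% lower). Within groups the members did not vary as a block. Over all pairs of members, Pearson's r of values with group means subtracted ran from -0.71 (Rdh16 with Dhrs3) to 0.52 (Lrat with Cyp26a1), over the 15 arrays, which share their processing.

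By the same measure the genes most like each member were searched over all genes, as a description. For Retsat they were Rbm34 (r = 0.90), Smad5 (0.90) and Thoc2l (0.85). Rdh11 was most like Insig1 (0.87), Gal3st2 (0.86) and Gm5122 (0.86). For Rdh16f2 they were Bmp15 (0.91), Olfr787 (0.87) and Prl7b1 (0.85), and for Rdh16 Hhipl2 (0.87), Fmo4 (0.84) and Gm6654 (0.83). The nearest to Dhrs3 was Jarid2 (0.88, then Pogz and Wdr78), to Lrat Uvrag (0.87, then Synj2bp and Mkln1), to Rbp4 Osbpl5 (0.85, then Dmac2 and Iqcg), to Aldh1a1 Clec4b2 (0.87, then Mettl9 and Fndc5), and to Cyp26a1 Pacc1 (0.84, then 9330162B11Rik and Vmn2r84). Several of these averaged under the lowest array median of 3.89, among them Bmp15 (2.91), Olfr787 (1.79) and Vmn2r84 (1.11). Without the subtraction of group means, r ran from -0.14 (Rdh16 with Fmo4) to 0.90 (Rbp4 with Dmac2). It was -0.12 for Retsat with Rbm34 and 0.28 for Rdh11 with Insig1.

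Beyond the 9 members, 68 of 74 listed genes of retinoid uptake, binding, storage, conversion, clearance and signalling were measured. In RYGB against Sham AL 1 was higher and 3 were lower past the threshold (5.88%, background 1.38%), in RYGB against BWm 3 were higher and 4 lower (10.3%, background 6.36%), and in BWm against Sham AL 3 were higher and 2 lower (7.35%, background 2.84%). The median log2 difference over the 68 genes was -0.06, -0.10 and 0.03, in that order, beside medians within 0.01 of 0 over all genes.

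Bco1, which cleaves beta-carotene to retinal, was the 1 gene on the list that was higher after bypass than in both sham groups. It measured 5.63, 6.18, 6.34, 6.55, 5.99 and 6.04 in RYGB livers, 5.42, 5.34, 5.70 and 5.09 in BWm livers, and 4.77, 4.53, 5.18, 4.92 and 5.14 in Sham AL livers. RYGB lay above all Sham AL values and overlapped BWm through 1 array of each group. It rose 2.32-fold against Sham AL (log2 1.22 ± 0.16 SE, adjusted p = 0.00062) and 1.66-fold against BWm (log2 0.73 ± 0.17, adjusted p = 0.012, not passed without BWm replicate 4), and BWm against Sham AL was log2 0.48 ± 0.18 (adjusted p = 0.17). Neither of the other carotenoid genes, Bco2 and Isx, passed in any comparison.

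Among 12 measured genes of retinyl ester synthesis and hydrolysis, the carboxylesterase genes Ces1d, Ces1e and Ces1f were lower after bypass than in both sham groups. Carboxylesterases hydrolyse many esters, and some of this family hydrolyse retinyl esters. Ces1d averaged 8.06 ± 0.42 in RYGB livers (SD, n = 6), 9.21 ± 0.03 in BWm livers (SD, n = 4) and 8.99 ± 0.24 in Sham AL livers (SD, n = 5). RYGB livers were lower by log2 -0.93 ± 0.17 SE against Sham AL and -1.15 ± 0.18 against BWm (adjusted p = 0.0083 and 0.00063). Ces1e differed by log2 -1.08 ± 0.18 and -1.10 ± 0.19 and Ces1f by -0.81 ± 0.12 and -0.61 ± 0.13 in the same comparisons. For all 3 genes, all RYGB values lay under all values of both sham groups. For Ces1d against Sham AL this held only beyond the printed digits, as RYGB replicate 1 and Sham AL replicate 4 both measured 8.64. Ces3b was lower in RYGB than in BWm (log2 -1.17 ± 0.34, adjusted p = 0.047), which 14 of 26 alternatives ended, and Ces1b was higher in BWm than in Sham AL (log2 0.72 ± 0.16, adjusted p = 0.016), which ended in a fit of these 2 groups only and without BWm replicate 2 or 3. Members of this family are close copies that can share probe signal. Dgat1, which can also esterify retinol, did not pass in any comparison. Its log2 difference for RYGB against Sham AL was -0.12 ± 0.17, and 0.07 ± 0.13 without Sham AL replicate 4, which measured 6.97 against 5.85 to 6.24 on the other Sham AL arrays.

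Among genes listed for oxidation of retinal, Aox1, an aldehyde oxidase that can act on retinal, and Aldh1a7 were low in the BWm livers. Aldh1a7 was listed as a close relative of Aldh1a1, and its values are not read as those of a retinal-oxidising enzyme. Aox1 measured 8.12, 8.22, 7.94, 8.23, 8.32 and 8.55 in RYGB livers, 7.62, 7.32, 7.69 and 7.53 in BWm livers, and 8.68, 8.51, 8.14, 8.33 and 8.65 in Sham AL livers. All BWm values lay under all values of the other groups. Aox1 was higher in RYGB than in BWm by log2 0.69 ± 0.13 SE (adjusted p = 0.0031) and fell by 0.92 on the log2 scale in BWm against Sham AL (adjusted p = 0.0018). Aldh1a7 was higher in RYGB than in BWm by log2 0.61 ± 0.14 (adjusted p = 0.015, not passed with a replicate block or without BWm replicate 2 or 3) and lower in BWm than in Sham AL (log2 -0.90 ± 0.15, adjusted p = 0.0029). Aldh1a7 and Aldh1a1 are close copies, and shared probe signal between them was not tested. Aldh1a2 did not pass in any comparison, and its highest value, 5.01, was on the array of Sham AL replicate 4, against 3.18 to 3.88 on the other 14 arrays. Its log2 difference for RYGB against Sham AL was -0.40 ± 0.23 with that array and -0.10 ± 0.12 without it.

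Of the 21 other measured retinol dehydrogenases and reductases, 1 passed, Rdh5, higher in BWm than in Sham AL (log2 0.51 ± 0.13 SE, adjusted p = 0.035), and this call ended in 9 of 26 alternatives, among them those without Sham AL replicate 2, 4 or 5 or BWm replicate 1, 2 or 3. An unadjusted p under 0.05 by limma was met by 3 of the 21 in RYGB against Sham AL, 5 in RYGB against BWm and 7 in BWm against Sham AL. In that order, 6, 5 and 16 had a positive difference. Adh1, the cytosolic alcohol dehydrogenase, and Rdh10, a microsomal retinol dehydrogenase, measured log2 -0.02 ± 0.08 and -0.11 ± 0.11 for RYGB against Sham AL. Ttr, the plasma partner of Rbp4, was at -0.07 ± 0.08 and Stra6l, the liver receptor for retinol-loaded Rbp4, at 0.37 ± 0.15 (adjusted p = 0.27). Of the 9 uptake and transport genes and 5 cellular binding proteins measured, 0 passed in any of the 3 comparisons, with 2, 3 and 2 of the uptake genes and 0, 1 and 1 of the binding proteins at an unadjusted p under 0.05. Of 4 other measured retinoic acid hydroxylases, among them Cyp26b1, 0 passed, with 1, 1 and 2 at an unadjusted p under 0.05. Their median log2 differences were 0.15, -0.17 and 0.38 in the same order, with 3, 0 and 4 of 4 positive.

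The receptors that read retinoic acid did not pass. Rxra measured log2 0.04 ± 0.11 SE, Rara -0.15 ± 0.11 and Rarb 0.03 ± 0.13 for RYGB against Sham AL, and the corepressor gene Nrip1 alone among 8 receptors and cofactors passed, higher in BWm than in Sham AL (log2 0.60 ± 0.14, adjusted p = 0.024). That call ended with a replicate block, in a fit of these 2 groups only and without Sham AL replicate 5 or BWm replicate 2 or 3. Of 13 measured genes that retinoic acid induces in various cells, 0 passed in RYGB against Sham AL (2 at an unadjusted p under 0.05 by limma, and 0 by the methods' own rule). In RYGB against BWm 1 was higher and 1 lower (15.4%, background 6.36%), and in BWm against Sham AL 1 was higher and 1 lower (15.4%, background 2.84%). The gene higher in BWm against Sham AL was Nrip1, already counted among the cofactors. Cyp26a1, also known to be induced by retinoic acid, was not among the 13 and is described with the members. Hoxa3 and Stra8 of this list averaged 2.94 and 2.57, under the lowest array median of 3.89. Tgm2, a transglutaminase, was higher in RYGB than in BWm (log2 0.78 ± 0.13, adjusted p = 0.00092) and lower in BWm than in Sham AL (log2 -0.62 ± 0.13, adjusted p = 0.015, not passed without BWm replicate 3). Ripply3 was lower in RYGB than in BWm (log2 -0.43 ± 0.12, adjusted p = 0.035), a call that 10 of 26 alternatives ended, among them those without RYGB replicate 1, 2, 4, 5 or 6 or BWm replicate 1 or 2.

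**Figure D4:**
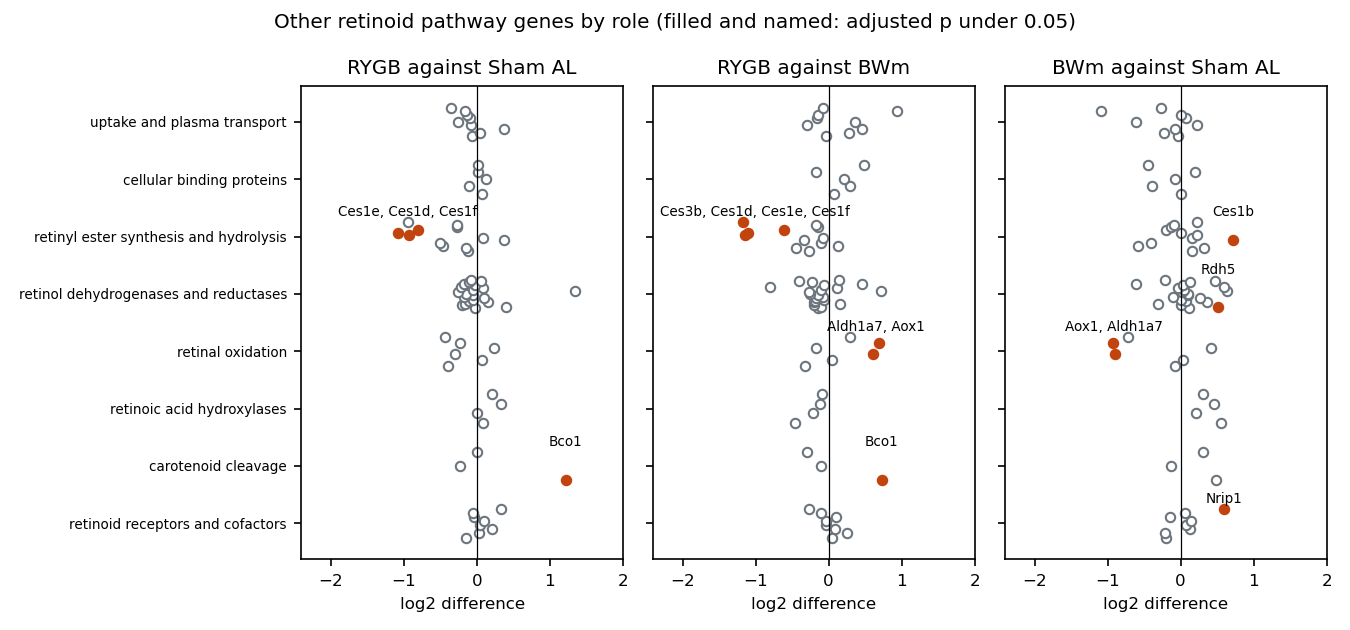
Log2 difference (horizontal axis) of the 68 other retinoid genes, 1 point per gene in rows by role, for the 3 comparisons; filled, named points passed an adjusted p of 0.05. Ces1d, Ces1e and Ces1f lie left of 0 in both RYGB panels and Bco1 right of 0, while Aox1 and Aldh1a7 lie at -0.92 and -0.90 in BWm against Sham AL.

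Markers of other liver cells were measured beside these genes. Kupffer cell markers averaged 7.65 to 8.10 in RYGB livers, 7.25 to 8.03 in BWm livers and 7.27 to 7.88 in Sham AL livers, with 1 of 8 higher in RYGB than in Sham AL (Adgre1) and 1 higher in RYGB than in BWm (Cd68). All 8 had a positive difference in both comparisons, with medians of log2 0.36 and 0.19, and 4 and 3 had an unadjusted p under 0.05. Sinusoidal endothelial markers averaged 7.41 to 8.01, 7.92 to 8.15 and 7.72 to 8.05 in the same order of groups, with Fcgr2b of 8 lower in RYGB than in BWm, where the median difference was log2 -0.31, 1 of 8 was positive and 4 had an unadjusted p under 0.05. In BWm against Sham AL their median difference was log2 0.23, with 7 of 8 positive and 2 at an unadjusted p under 0.05. Cholangiocyte markers averaged 4.62 to 4.86, 4.65 to 4.76 and 4.40 to 4.78, with 0 of 5 passed in any comparison at either an adjusted or an unadjusted p under 0.05. Periportal hepatocyte genes averaged 9.22 to 9.62, 9.41 to 9.59 and 9.16 to 9.56, with Cdh1 of 8 higher in RYGB than in BWm. The median difference of this list there was log2 -0.12, and 3 of 8 were positive. Fah of the 10 hepatocyte markers was lower in RYGB than in BWm and Cps1 was higher in BWm than in Sham AL. In RYGB against BWm their median difference was log2 -0.14, with 1 of 10 positive and 3 at an unadjusted p under 0.05. In BWm against Sham AL it was 0.18, with 8 of 10 positive and 4 at an unadjusted p under 0.05. Of the adipocyte markers, Cidea was lower in both RYGB and BWm than in Sham AL. This was not a matter of Sham AL replicate 4 (9.61) alone. Cidea measured 4.59, 7.10, 5.97 and 5.77 on the other Sham AL arrays, against 3.74 to 4.36 in RYGB and BWm livers. Of the adrenal markers 0 passed, with 1, 0 and 1 at an unadjusted p under 0.05. Their part in the values of the retinol genes was not tested.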

How the data were processed

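Liver RNA of 15 mice (6 RYGB, 4 BWm, 5 Sham AL), 1 array each, was used. Per the labels and the submitters' processing notes, all arrays went through RMA in Expression Console 1.4.1.46, and the authors deposited log2 signals for 41345 transcript clusters. The annotation version and genome build behind the clusters are not stated in the sources at hand, and the scanner files were not used, so signal over background was not measured. Clusters with 1 symbol (23521) were kept, and for genes with several, the cluster with the highest mean, which left 22180 genes with no filter on level.

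Groups were compared as contrasts of 1 fit over all 15 arrays with limma 3.58.1 in R 4.3.3 (12 residual and 5.85 prior degrees of freedom), two-sided, with Benjamini-Hochberg adjustment over all genes and a threshold of 0.05; the script was tested on simulated data. Fold changes are on the scale of the log2 values. The members, gene lists and comparisons were chosen with earlier results of these data known. The named genes were all members, list genes past the threshold in at least 1 comparison, a few fixed pathway genes, and, for their likeness only, the 3 genes most like each member. Of 74 pathway genes listed, 68 were measured and the others were not analysed here. Replicates are separate mice by their titles and animal numbers, and replicate numbers were not used as pairs in the main fit. Same-numbered arrays had deviations from group means correlating at -0.17 to 0.19, which cannot show whether those mice were handled together. Alternatives were a level filter, quantile normalization, subtraction of array medians, mean of clusters, fits of the compared groups only, a trended or a robust prior on the variance, weights for arrays, the replicate number or the animal number as a block (animal numbers were under 50 in 3 RYGB, 1 Sham AL and 0 BWm mice, above 60 in the others; its meaning is not stated), the methods' one-way ANOVA (p under 0.05 with a fold of at least 1.5), and leaving out each array. The ANOVA rule used 1 unadjusted p over all 3 groups for each gene, and pairs of groups were told apart by the fold only. Python 3.11.15, pandas 2.3.3 and matplotlib 3.10.9 made tables and figures.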

Additional observations from a re-analysis of the deposited data

Results flagged for a closer look

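Outlying arrays were looked for in each group for 30 genes, the 9 members and 21 list genes, by Dixon's rule, 90 groups in all, a rule that chance meets in about 1 of 20 groups (0.05). It was met once. Tgm2 measured 8.72 on the array of RYGB replicate 1, against 9.02 to 9.18 on the other RYGB arrays. None of the 9 retinol genes was flagged in any group.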

How the results depend on the processing

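Every count of calls and the differences of 30 genes (the 9 members and 21 list genes, not the genes named for likeness) were recomputed under 26 alternatives, except that the level filter drops Aldh1a2 and Rarb. The calls of Retsat in RYGB against BWm and in BWm against Sham AL, of Rdh16f2 in RYGB and in BWm against Sham AL, and of Rdh11 in RYGB against both sham groups passed under all of them, with highest adjusted p values of 0.0015, 0.0063, 0.024, 0.0032, 0.03 and 0.0071; 0 called values changed sign. Of the 63 values not past the threshold, 14 had another sign under at least 1 alternative, among them those of Dhrs3 for RYGB against Sham AL and of Lrat and Aldh1a1 for RYGB against BWm, and Lrat for RYGB against Sham AL was too near 0 to have a sign. The number of members past the threshold in RYGB against BWm was 4, and 2 (Retsat and Rdh11) by the methods' ANOVA rule. Left-out arrays gave 2 to 4 members there (2 without RYGB replicate 1, 2 or 5 or BWm replicate 2 or 4), 2 in each fit of RYGB against Sham AL and 2 to 3 in BWm against Sham AL (3 without BWm replicate 4). For the other pathway genes in BWm against Sham AL, 5 passed, with 8 under the level filter, 2 in the compared groups only, 3 with a replicate block, 8 by the ANOVA rule and 2 to 8 over left-out arrays (2 without BWm replicate 2 or 3, 8 without Sham AL replicate 1). Of the genes induced by retinoic acid, 2 passed in RYGB against BWm, with 1 under the replicate block, the animal number block and the ANOVA rule and 1 to 3 over left-out arrays (1 without RYGB replicate 1, 2, 4, 5 or 6 or BWm replicate 1 or 2), and 2 in BWm against Sham AL, with 1 in the compared groups only, 1 with the replicate block and 0 to 3 over left-out arrays (0 without BWm replicate 3). Over all genes, 306, 1411 and 629 passed in RYGB against Sham AL, RYGB against BWm and BWm against Sham AL. The replicate block gave 174, 903 and 325, the ANOVA rule 856 in RYGB against BWm, the level filter 1046 in BWm against Sham AL, and left-out arrays 144 (without Sham AL replicate 2) to 398, 930 (without BWm replicate 3) to 1544 and 284 (without BWm replicate 2 or 3) to 646. The cause of these shifts was not tested, apart from the filter, which tests fewer genes. The replicate block is not a known pairing of these mice, and each array correlated best with its own number in 1 of 5, 1 of 4 and 1 of 4 cases.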

Other observations

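Dhrs9, a retinol dehydrogenase chosen here after its values were seen, had the widest positive difference of the listed retinoid genes in RYGB against Sham AL without passing the test. It measured 5.16, 6.24, 7.47, 5.83, 5.50 and 5.94 in RYGB livers, 4.80, 6.09, 5.57 and 4.79 in BWm livers, and 4.79, 4.01, 4.59, 5.51 and 4.51 in Sham AL livers. The log2 difference was 1.34 ± 0.35 SE for RYGB against Sham AL (limma adjusted p = 0.067) and 0.71 ± 0.37 for RYGB against BWm (adjusted p = 0.33). RYGB replicate 3 held the highest value. RYGB against Sham AL passed in 5 of 26 alternatives, among them those without Sham AL replicate 4 and without RYGB replicate 1, and with the methods' rule, by which the other comparisons passed too.

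Lpl, the lipoprotein lipase that can act on retinyl esters of chylomicrons, also chosen after its values were seen, measured 7.99, 8.68, 8.43, 8.09, 8.86 and 8.39 in RYGB livers, 7.51, 7.65, 7.44 and 7.33 in BWm livers, and 7.46, 8.03, 8.85, 10.35 and 8.17 in Sham AL livers. The value of 10.35 was that of Sham AL replicate 4, the array with high adipocyte and adrenal markers. RYGB lay above BWm on every array, at log2 0.93 ± 0.37 SE (limma adjusted p = 0.17), and passed without that array and in a fit of these groups only. BWm against Sham AL was log2 -1.09 ± 0.38 (adjusted p = 0.15), and -0.65 ± 0.23 without that array (adjusted p = 0.17). RYGB against Sham AL was log2 -0.16 ± 0.35 with it and 0.28 ± 0.21 without it.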
